A study of Drosophila melanogaster with 8 samples.

Results

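The glutathione S-transferase (GST) family was described in whole guts of Drosophila melanogaster females. Its members were chosen by name, as the genes whose symbol in the authors' deposited table is Gst followed by a class letter (D, E, O, S, T or Z) and a number. This gave 35 of the 17559 genes counted: 11 of class D, 14 of class E, 3 of class O, 1 of class S, 4 of class T and 2 of class Z. RNA was sequenced from 4 control gut samples, which carried UAS>GFP, and 4 gut samples in which UAS-LamDm0 was switched on in enterocytes, which absorb nutrients in the midgut. LamDm0 is the B-type lamin, a protein of the nuclear lamina. The flies of both groups were raised at 18 °C, and females 2 to 4 days old then spent 2 days at 29 °C. The labels give control genotype as wt and name neither the Gal4 driver nor a strain, and they call the samples biological repeats without saying how many guts went into each. If these repeats were not separate collections of flies, the p-values below measure technical spread.

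GSTs join the tripeptide glutathione to reactive or fat-soluble compounds, which makes them easier to remove from the cell. Transporters of the MRP type export the conjugates. In insects the family has grown by tandem duplication, above all in classes Delta (D) and Epsilon (E), and these classes are known for detoxifying plant compounds, insecticides and products of lipid peroxidation. Omega enzymes (O) work mainly as thiol transferases, Zeta enzymes (Z) take part in tyrosine breakdown, and Sigma (S) and Theta (T) are older classes shared with vertebrates. The transcription factor cnc, the fly counterpart of Nrf2, and its inhibitor Keap1 control the induction of several family members, and GstD1 is the usual reporter of that pathway.

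Library totals ranged from 19720070 to 36022790 counts. CPM is the count of a gene scaled to a common library total. In plain CPM, 3 counts, the most that a count of 0 allows, equal 0.083 to 0.152. Other CPM below are also TMM-scaled, a further scaling of library totals, unless called plain. Lam itself was at 16.2 to 20.2 CPM in controls and 2702 to 4647 CPM in LamDm0 libraries, so each library matched its label. The 9 enterocyte markers summed to 21000 to 27500 CPM in controls and 17300 to 30500 CPM in LamDm0 guts, and 2 of them, Alp4 and Amy-p, fell. Replicates 1 and 2 lay close together in both groups, and so did 3 and 4. The median chi-square per gene between libraries was 1.62 and 3.42 for these pairs in controls and 4.09 and 2.06 in LamDm0 guts. It was 9.11 to 12.3 for the other control pairs and 23.4 to 34.6 for the other LamDm0 pairs, where sampling noise alone gives 0.455. All pairs differed by more than sampling noise, which does not show whether the close libraries came from separate flies. They were counted as separate samples, as labelled, and results are given below also without a pair. Markers of 2 neighbouring tissues differed between libraries. The summed level of 9 fat body genes was 786, 704, 17.9 and 515 CPM in control replicates 1 to 4 and 1740, 1870, 1190 and 908 CPM in LamDm0 replicates 1 to 4. These sums came from the yolk protein genes Yp1, Yp2 and Yp3 and the lipophorin gene apolpp, whereas the larval serum protein gene Lsp2 and Fbp1 were at 0 counts in all controls. In LamDm0 replicates 1 to 4, Lsp2 had 3, 1, 201 and 0 counts and Fbp1 had 1, 0, 3 and 0 counts. The summed level of 8 Malpighian tubule genes was 368, 161, 99.8 and 280 CPM in controls and 84.4, 123, 155 and 63.1 CPM in LamDm0 guts. Of these lists, 4 and 7 genes could be tested and 0 passed, by edgeR's quasi-likelihood test. Before adjustment, 1 and 4 had a p under 0.05, and DESeq2 called 0 and 1. Over all 8794 genes tested, 2105 had an edgeR p under 0.05 before adjustment, the background for such counts here and below. In the lists for progenitor cells, enteroendocrine cells, visceral muscle, hemocytes, copper cells and trachea 0 genes passed, with 4 under 0.05 before adjustment and 1 called by DESeq2, and the sums overlapped between groups.

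Of the 35 members, 30 had enough counts to be tested. The 5 others were GstD6, GstE2, GstE4, GstE14 and GstZ2, with at most 23 counts in any library. GstE14, an enzyme of ecdysone synthesis in steroid-producing glands, had 0 or 1 count in each library and is at the detection limit here. Levels of different members were compared as CPM per kilobase of annotated exon. In control guts 8 members reached 100 CPM per kb, 13 stayed under 10 and 5 of these under 1. GstD1, which can dehydrochlorinate DDT and conjugate the lipid peroxidation product 4-hydroxynonenal, stood highest at 681 ± 316 CPM per kb (SD, n = 4). It was followed by GstE3 at 373 ± 24.7, GstO3 at 291 ± 78.5, GstE7 at 216 ± 10.8, GstE6 at 185 ± 63.8, GstE12 at 183 ± 23.1, GstE9 at 159 ± 66.2 and GstT4 at 151 ± 62.8 CPM per kb. GstD9 and GstD10 came next at 80.6 ± 24.7 and 75.1 ± 40.3 CPM per kb. Among these 10, the steps from GstE3 to GstO3 and from GstT4 to GstD9 exceeded the larger SD of the pair, and the other 7 steps did not. In LamDm0 guts GstD1 was again first, with 878 ± 23.1 CPM per kb, while GstE7 went from rank 4 to rank 11 and GstD9 from rank 9 to rank 5.

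**Figure D1:**
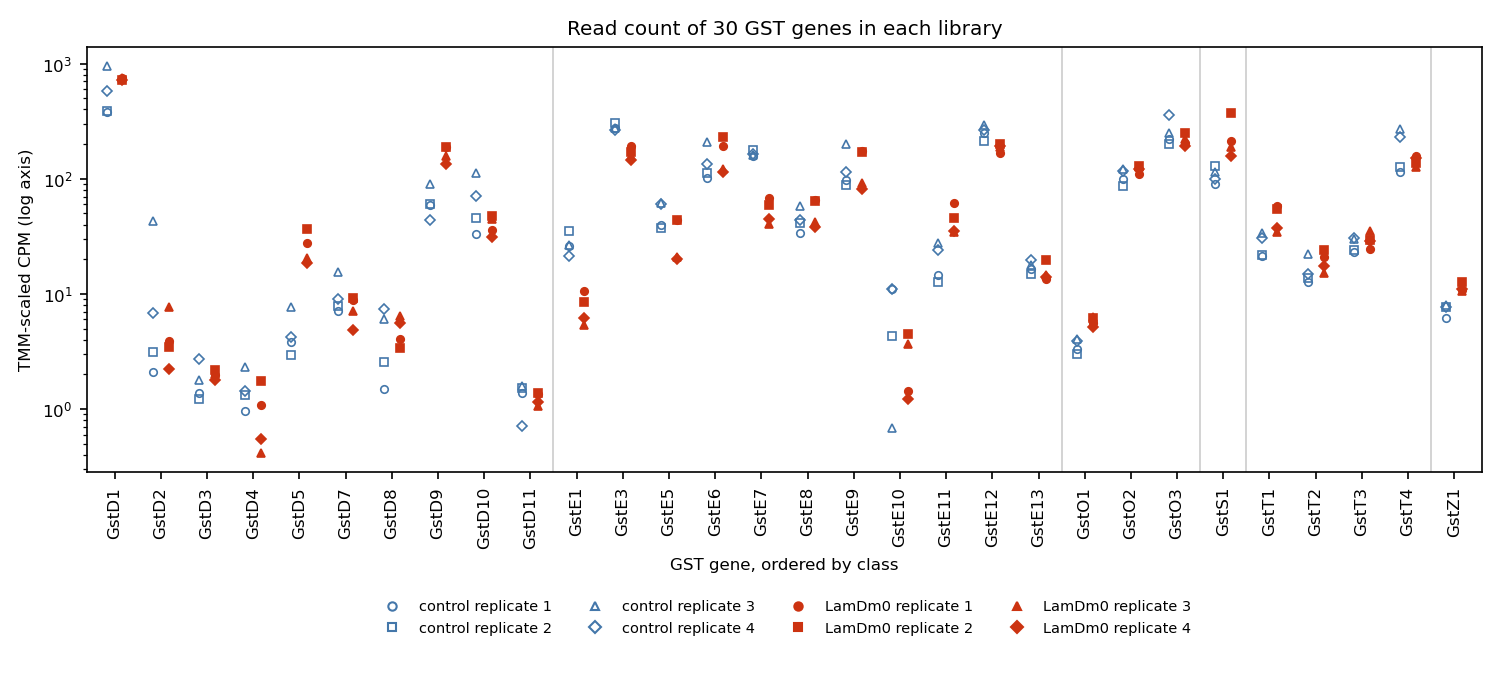
TMM-scaled CPM (TMM is the trimmed mean of M values, a scaling of library totals; log axis) of the 30 tested GST genes, ordered by class, with 1 point per library; open blue symbols are control and filled red symbols LamDm0 libraries. GstD5, GstD9, GstE1 and GstE7 separate the groups, and GstD2 stands at 43.4 CPM in control replicate 3 against 2.11 to 6.79 CPM in the other controls.

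Comparing LamDm0 with control guts, 6 members rose, 3 fell and 21 did not pass. Those that rose were GstD5, GstD9, GstE11, GstO1, GstS1 and GstZ1, and those that fell were GstE1, GstE3 and GstE7. Over all 8794 genes tested, 8.03% were called, 4.76% as higher and 3.26% as lower, against 9 of 30 members. The median log2 fold change was 0.09 over the 30 members and 0.01 over all genes, with 16 members above 0 and 14 below. Control and LamDm0 values were fully separated for 11 of the 30, and the same share over all genes was 17.3%. Besides the 9 called, these were GstE12 and GstT1. In whole guts, fewer cells of a type and less RNA per cell cannot be told apart. When each close pair of libraries was added up into 1, leaving 2 samples a group, 0 members passed by edgeR (adjusted p of 0.0515 to 0.415 for the 9), while over all genes 72 passed.

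**Figure D2:**
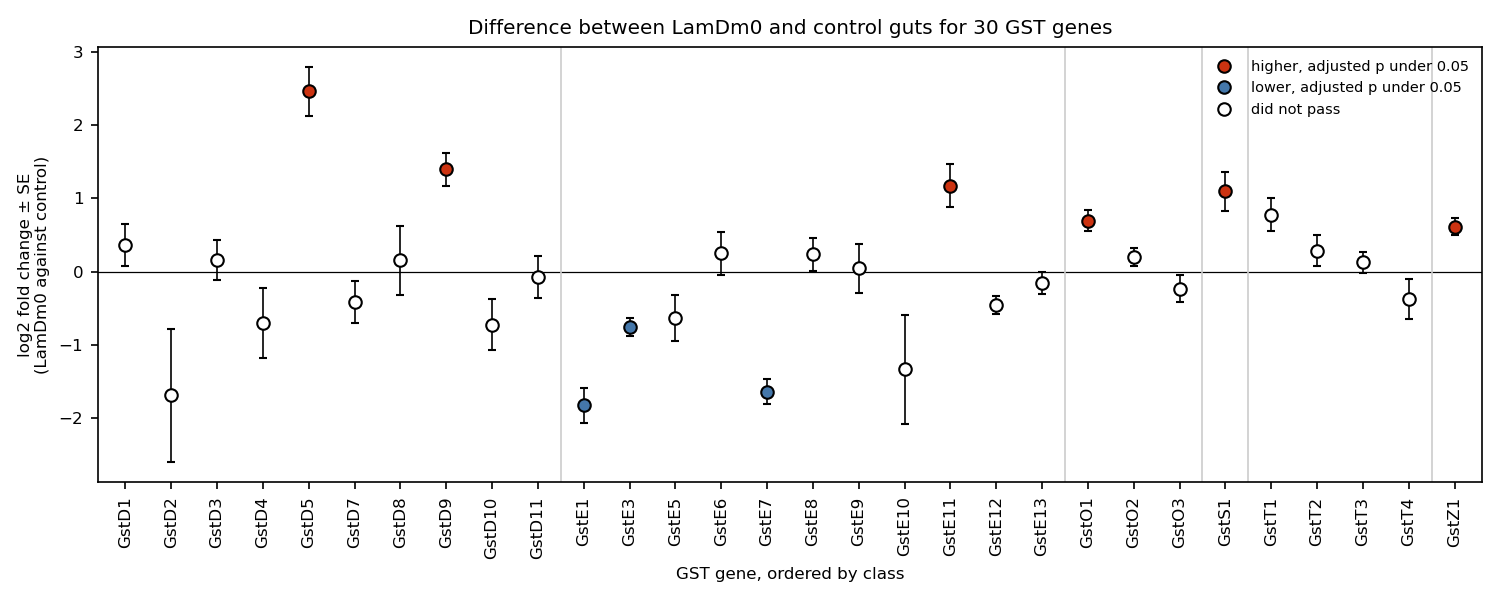
Log2 fold change of LamDm0 against control (points; bars are the SE from the edgeR fit on 4 libraries a group) for the 30 tested GST genes, ordered by class. Red points are higher and blue points lower at an adjusted p under 0.05; calls in both directions stand beside members close to 0.

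In class D, 2 of the 10 tested members rose and 0 fell. GstD5 had 3.83, 2.95, 7.74 and 4.21 CPM in control replicates 1 to 4 and 27.8, 36.8, 20.6 and 18.4 CPM in LamDm0 replicates 1 to 4. All LamDm0 libraries lay above all controls, and the increase was 5.51-fold (log2 fold change 2.46 ± 0.33 SE, adjusted p = 0.0038). Here and below, adjusted p-values are from edgeR's quasi-likelihood test, adjusted over all genes by the Benjamini-Hochberg method. GstD9 had 58.7, 60.8, 90.2 and 43.8 CPM in controls and 189, 187, 157 and 134 CPM in LamDm0 guts. It rose 2.63-fold without overlap (log2 fold change 1.40 ± 0.22, adjusted p = 0.0072). Both calls were kept when any 1 library was left out (adjusted p up to 0.017 for GstD5 and 0.03 for GstD9), and without either pair of LamDm0 libraries.

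GstD1, the most abundant member, did not pass. Its controls had 382, 385, 948 and 581 CPM and its LamDm0 libraries 758, 725, 756 and 722 CPM. The LamDm0 libraries were close to each other, with a coefficient of variation of 2.63%, and lay inside the range of the controls, whose coefficient of variation was 46.4% (log2 fold change 0.37 ± 0.28, adjusted p = 0.48). Its log2 fold change was 0.72 without control replicate 3 (adjusted p = 0.065), 0.21 without control replicate 1 and 0.22 without control replicate 2. GstD10 had 32.9, 45.8, 113 and 71.4 CPM in controls and 36.1, 47.2, 45 and 31.1 CPM in LamDm0 guts, and the groups overlapped (-0.73 ± 0.35, adjusted p = 0.25). GstD2 turned on 1 library. Its level was 43.4 CPM in control replicate 3, while the 7 other libraries had 2.11 to 7.64 CPM. The log2 fold change was -1.69 ± 0.91 (adjusted p = 0.30) with all libraries and 0.10 when control replicate 3 was left out. The authors' deposited table lists no p-value for GstD2. Of the other members of the class tested, GstD7 was at 7.13 to 15.5 CPM in controls and 4.82 to 9.14 CPM in LamDm0 guts, and GstD8 at 1.48 to 7.41 CPM and 3.38 to 6.47 CPM. GstD3, GstD4 and GstD11 stayed under 3 CPM in all libraries, and in all 5 genes the groups overlapped (adjusted p of 0.42 to 0.91).

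The 11 class D genes lie in a tandem array of 20849 bases on chromosome arm 3R (12364776 to 12385624, BDGP6.54, Ensembl 115 annotation). In 10 of them the coding sequence is 1 exon, and the exception is GstD11 with 3 coding exons. The genes that rose do not adjoin. GstD9 (3R, 12366163 to 12367564, minus strand) lies between GstD10 and GstD1, which share its strand. GstD5 (3R, 12375733 to 12376572, plus strand) lies between GstD4 and GstD6, the latter at 0 to 11 counts per library. The read count of GstD4 relative to GstD5 was 0.25 to 0.448 in controls and 0.0202 to 0.0479 in LamDm0 guts, with GstD4 itself at 0.957 to 2.32 CPM and 0.415 to 1.76 CPM. The read count of GstD10 relative to GstD9 was 0.561, 0.754, 1.25 and 1.63 in control replicates 1 to 4, and 0.191, 0.252, 0.287 and 0.232 in LamDm0 replicates 1 to 4. Classes D and E have grown by tandem duplication, and the sequences of neighbours were not compared here. How reads matching more than 1 gene were handled is not given in the sources used here, so the split of reads between neighbours is uncertain.

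Class E held all 3 decreases. GstE7 had 157, 177, 163 and 165 CPM in controls and 67.8, 59.3, 40.9 and 44.8 CPM in LamDm0 guts. The coefficient of variation of the controls was 5.01%, no LamDm0 library came near them, and the gene fell 3.11-fold (log2 fold change -1.64 ± 0.17, adjusted p = 0.001). GstE1, which conjugates 4-hydroxynonenal, had 26.1, 34.9, 26.4 and 21.4 CPM in controls and 10.7, 8.57, 5.4 and 6.24 CPM in LamDm0 guts, and fell 3.54-fold (-1.82 ± 0.24, adjusted p = 0.0033). GstE3, the second most abundant member per length, had 277, 308, 276 and 264 CPM in controls and 192, 171, 159 and 147 CPM in LamDm0 guts. It fell 1.68-fold, again with no overlap (-0.75 ± 0.12, adjusted p = 0.0074). All 3 calls were kept when any 1 library was left out (adjusted p up to 0.0051, 0.012 and 0.028 in that order) and without either pair of LamDm0 libraries. GstE1 overlaps GstE10 on the opposite strand over 2.4% of its exon bases.

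GstE11 rose, unlike the other called genes of its class. It had 14.6, 12.7, 27.4 and 23.9 CPM in controls and 62, 45.8, 34.3 and 35.5 CPM in LamDm0 guts, an increase of 2.26-fold (1.18 ± 0.29, adjusted p = 0.041). LamDm0 replicates 1 and 2 were the highest. The call ended without any 1 library other than control replicate 3 (adjusted p up to 0.11) and without either pair of LamDm0 libraries (0.14 and 0.057). GstE12 had 252, 215, 293 and 264 CPM in controls and 166, 202, 189 and 192 CPM in LamDm0 guts. The groups did not overlap and the gene did not pass (-0.45 ± 0.13, adjusted p = 0.064), whereas by DESeq2 it did (adjusted p = 0.0055). GstE6 had 102, 112, 208 and 135 CPM in controls and 194, 232, 122 and 114 CPM in LamDm0 guts, and GstE9 96.7, 88.1, 202 and 114 CPM and 173, 170, 91.3 and 81.6 CPM. Both overlapped between groups (0.25 ± 0.30, adjusted p = 0.66, and 0.04 ± 0.34, adjusted p = 0.95). In both genes LamDm0 replicates 1 and 2 were above 3 and 4. GstE8, at 34.1 to 58.4 CPM in controls and 38.3 to 65.9 CPM in LamDm0 guts, and GstE13, at 14.9 to 19.6 CPM and 13.6 to 19.8 CPM, overlapped too (adjusted p = 0.56 and 0.57).

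The array of class E genes on 2R spans 13198 bases (18396638 to 18409835) and holds GstE1 to GstE10, all with 1 coding exon. GstE11 (2R, 18503608 to 18505025), GstE12 (2R, 24766718 to 24768172), GstE13 and GstE14 lie elsewhere on the arm and have 2 to 4 coding exons. Of the 8 genes of the array tested, 3 fell and 5 did not pass. The genes that fell, GstE1 (2R, 18398393 to 18399223), GstE3 (2R, 18400713 to 18401467) and GstE7 (2R, 18406924 to 18407688), are all on the plus strand and are separated by other members. GstE7 starts 162 bases after the end of GstE6 and ends 145 bases before GstE8. GstE6 had 0.645, 0.633, 1.28 and 0.814 times the reads of GstE7 in control replicates 1 to 4 and 2.87, 3.92, 2.98 and 2.54 times in LamDm0 replicates 1 to 4. GstE7 had 2.78 to 4.61 times the reads of GstE8 in controls and 0.928 to 1.17 times in LamDm0 guts. Over the 16 pairs of neighbouring members in which both were tested, the ratio of reads did not overlap between groups in 9. Each of the 9 reached p = 0.0286 in a two-sided exact permutation test over 4 against 4 libraries, the smallest p that this design allows. Adjusted over the 16 pairs it was 0.051, so 0 pairs passed, with no smaller p within reach. Pairs share members and several hold a called gene, so their separation partly restates the results above. The ratio was not computed for neighbouring genes outside the family, so no share over all genes stands beside the 9.

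**Figure D3:**
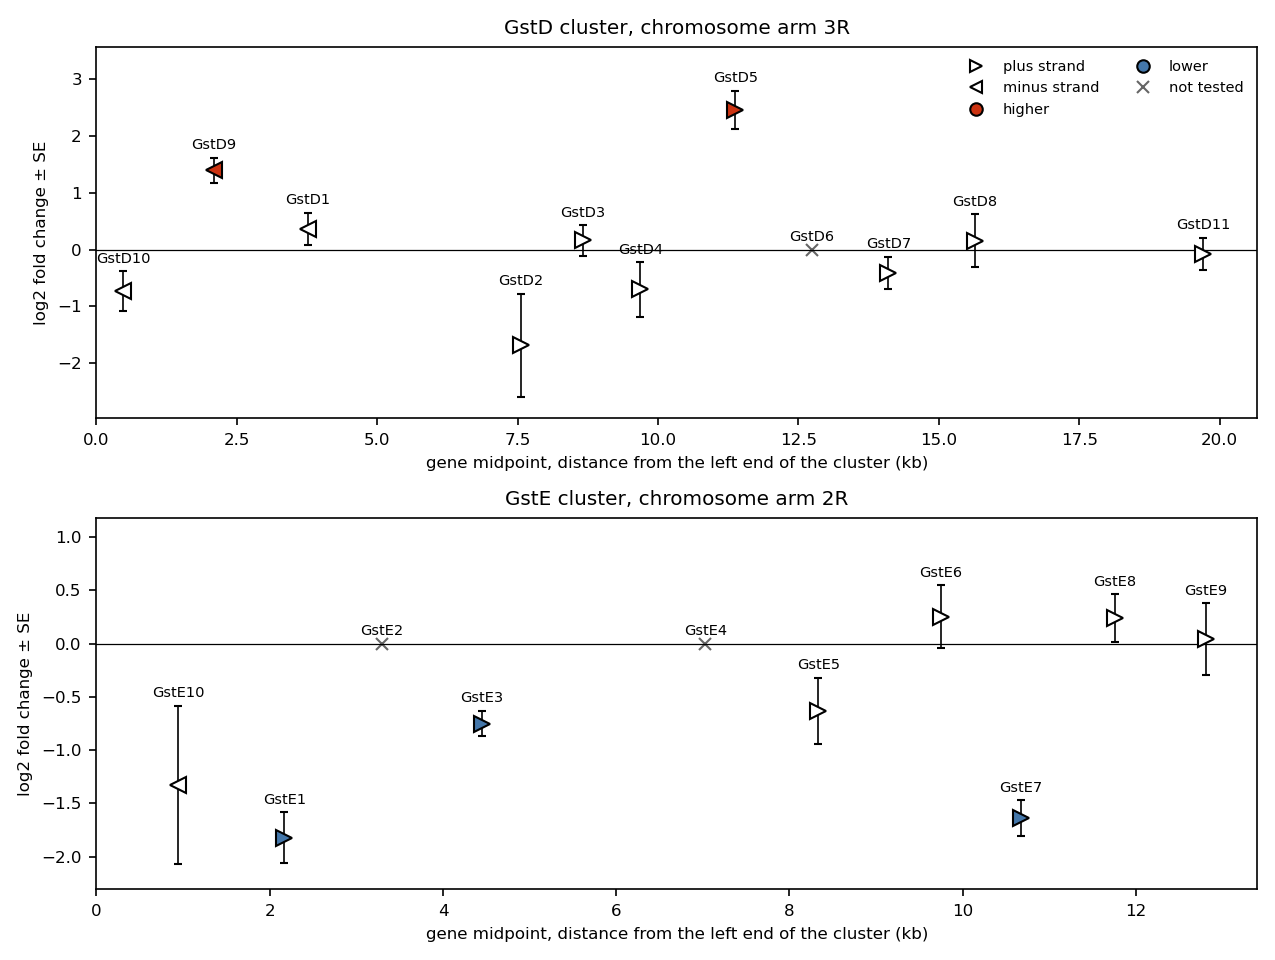
Log2 fold change ± SE (LamDm0 against control, 4 libraries each) of the members of the GstD array (top) and the GstE array (bottom) against the distance of the gene midpoint from the left end of the array in kb. Triangles point along the strand, red is higher, blue is lower, white did not pass and crosses at 0 mark genes not tested; GstD9 and GstD5, and GstE1, GstE3 and GstE7, stand among neighbours that did not pass or were not tested.

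Outside the arrays, 4 of 12 tested members rose and 0 fell: GstE11, GstO1, GstS1 and GstZ1. GstS1 (2R, 17093246 to 17099501), which also conjugates 4-hydroxynonenal and is abundant in flight muscle, had 90.4, 130, 115 and 99.7 CPM in controls and 214, 374, 187 and 159 CPM in LamDm0 guts. It rose 2.15-fold with no overlap (log2 fold change 1.1 ± 0.27, adjusted p = 0.039), and the highest value was that of LamDm0 replicate 2. The call ended without any 1 control library or without LamDm0 replicate 1 or 3 (adjusted p up to 0.11), and also without LamDm0 replicates 1 and 2 (log2 fold change 0.67, adjusted p = 0.056). It was kept without replicates 3 and 4 (1.44, adjusted p = 0.026). The summed level of 10 muscle genes was 1820, 1480, 2420 and 2800 CPM in controls and 2970, 1890, 1890 and 1380 CPM in LamDm0 guts, and these groups overlapped. The part of muscle in the level of GstS1 was not tested.

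GstO1 (3L, 8523742 to 8524866) had 3.35, 3, 4.04 and 3.87 CPM in controls and 5.61, 6.14, 6.3 and 5.14 CPM in LamDm0 guts. It rose 1.62-fold (0.70 ± 0.15, adjusted p = 0.025), a call that ended without control replicate 1 or 2 or LamDm0 replicate 2 or 3 (adjusted p up to 0.077) and without either pair of LamDm0 libraries (0.067 and 0.079). Its neighbours GstO2 and GstO3 did not pass. GstO2 was at 87.4 to 121 CPM in controls and 111 to 128 CPM in LamDm0 guts (0.20 ± 0.13, adjusted p = 0.38). GstO3 had 222, 199, 248 and 355 CPM in controls and 206, 251, 224 and 193 CPM in LamDm0 guts (-0.23 ± 0.19, adjusted p = 0.51). The read count of GstO2 was 29.1 to 30.1 times that of GstO1 in controls and 19.7 to 23.6 times in LamDm0 guts.

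GstZ1 (3R, 9455517 to 9456546), of the class of maleylacetoacetate isomerases, had 6.22, 7.69, 7.94 and 7.65 CPM in controls and 10.8, 12.6, 10.7 and 11 CPM in LamDm0 guts. It rose 1.53-fold (0.61 ± 0.12, adjusted p = 0.016), and the call was kept without any 1 library (adjusted p up to 0.044). The call ended without LamDm0 replicates 3 and 4 (adjusted p = 0.051). In class T, 0 of 4 members passed, and 1 had an unadjusted p under 0.05. That gene, GstT1, had 21.4, 21.6, 34.1 and 30.8 CPM in controls and 58.5, 54.7, 34.5 and 37.4 CPM in LamDm0 guts (0.78 ± 0.23, adjusted p = 0.072), and it passed by DESeq2. GstT4 had 115, 126, 270 and 229 CPM in controls and 157, 138, 125 and 151 CPM in LamDm0 guts (-0.37 ± 0.27, adjusted p = 0.45). GstT2 and GstT3 also overlapped between groups, at 12.6 to 22.3 CPM and 23.3 to 30.6 CPM in controls and 15.1 to 23.9 CPM and 24.5 to 35.2 CPM in LamDm0 guts (adjusted p = 0.45 and 0.63). GstT2 shares 25.1% of its exon bases with a gene on the opposite strand, so its counts are uncertain where strand was not used in counting.

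Summed over the family, reads did not separate the groups. The 35 members had 2112, 2171, 3416 and 2739 CPM in control replicates 1 to 4 and 2831, 3056, 2491 and 2341 CPM in LamDm0 replicates 1 to 4, with means of 2609 ± 608 and 2680 ± 324 CPM. Their make-up differed. Class E took 48.6%, 48.2%, 39.1% and 41% of GST reads in controls and 35%, 33.4%, 29% and 29.7% in LamDm0 guts, so every LamDm0 library lay below every control. The share of class D was 23.3%, 23.6%, 36% and 26.6% in controls and 36.5%, 33.3%, 40.3% and 39.4% in LamDm0 guts, and these groups overlapped through control replicate 3. The share of GstS1, 3.37% to 5.99% in controls, was 6.8% to 12.3% in LamDm0 guts. Shares and sums are given without a test, since they combine the genes described above.

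**Figure D4:**
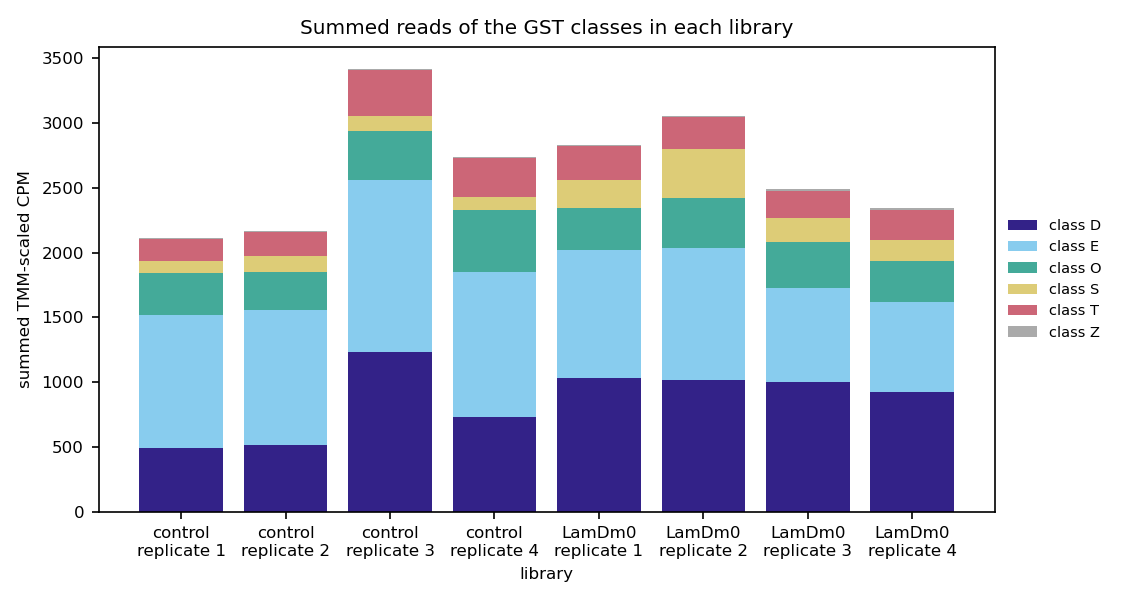
Summed TMM-scaled CPM of each GST class (stacked bars, axis from 0) in the 8 libraries. Class E took 39.1% to 48.6% of GST reads in controls and 29% to 35% in LamDm0 guts, while the total was 2112 to 3416 CPM in controls and 2341 to 3056 CPM in LamDm0 guts; heights of different classes also depend on gene length and number.

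Within each group the members varied together. In controls, 22 of 30 members were lower in replicates 1 and 2 than in both 3 and 4, where the share over all genes was 30.4%, and 20 of 30 were highest in replicate 3, against 29.1% of all genes. Control replicate 3 was also the library with the lowest fat body sum, 17.9 CPM, and the part of that tissue in these GST levels was not tested. In LamDm0 guts, 16 of 30 members were higher in replicates 1 and 2 than in both 3 and 4, against 32.8% of all genes. This held for 0 of 3 tested members in class O, 2 of 4 in class T, 5 of 10 in class D and 8 of 11 in class E. GstE5 was an example, with 43.6 and 43.6 CPM in LamDm0 replicates 1 and 2 and 20.9 and 20 CPM in 3 and 4. Its controls had 39.4, 37.1, 62 and 60 CPM, and the groups overlapped (-0.63 ± 0.31, adjusted p = 0.26). Without LamDm0 replicates 1 and 2 the log2 fold change of GstE5 was -1.27 (adjusted p = 0.035), and without 3 and 4 it was -0.18 (adjusted p = 0.70). For the family sum, the order of the LamDm0 pairs depended on TMM scaling. In plain CPM all members summed to 2670, 2824, 3001 and 2857 CPM in LamDm0 replicates 1 to 4. In controls the plain sums were 2107, 2163, 2972 and 2472 CPM, with 1 and 2 again below 3 and 4. The counts of members were not repeated in plain CPM. The median coefficient of variation of the members was 29.1% in controls and 21.9% in LamDm0 guts, and over all genes it was 15.7% and 16.3%. In 17 of the 30 members the SD of the controls was larger than the difference between the group means. These included 6 of the 10 highest per kb, namely GstD1, GstO3, GstE6, GstE9, GstT4 and GstD10. The same count was not made over all genes.

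GstE10 varied most between libraries within the E array. It had 11, 4.28, 0.69 and 11 CPM in control replicates 1 to 4 and 1.43, 4.48, 3.7 and 1.23 CPM in LamDm0 replicates 1 to 4. Uro, the urate oxidase gene that marks the main segment of the Malpighian tubule, had 58.4, 15.8, 0.0986 and 43.9 CPM and 0.0795, 9.14, 34.7 and 0.136 CPM in the same order. The 3 libraries with the lowest Uro were those with the lowest GstE10. GstE10 did not pass (-1.33 ± 0.75, adjusted p = 0.32), and the part of tubule tissue in its level was not tested. The fat body sum was higher in every LamDm0 library than in every control, like the 6 members that rose. Within controls, replicate 3 had the lowest fat body sum, 17.9 CPM, yet was the highest control for GstD5, GstD9, GstE11, GstO1 and GstZ1. For GstS1 the highest control was replicate 2. The part of fat body in those results was not tested.

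**Figure D5:**
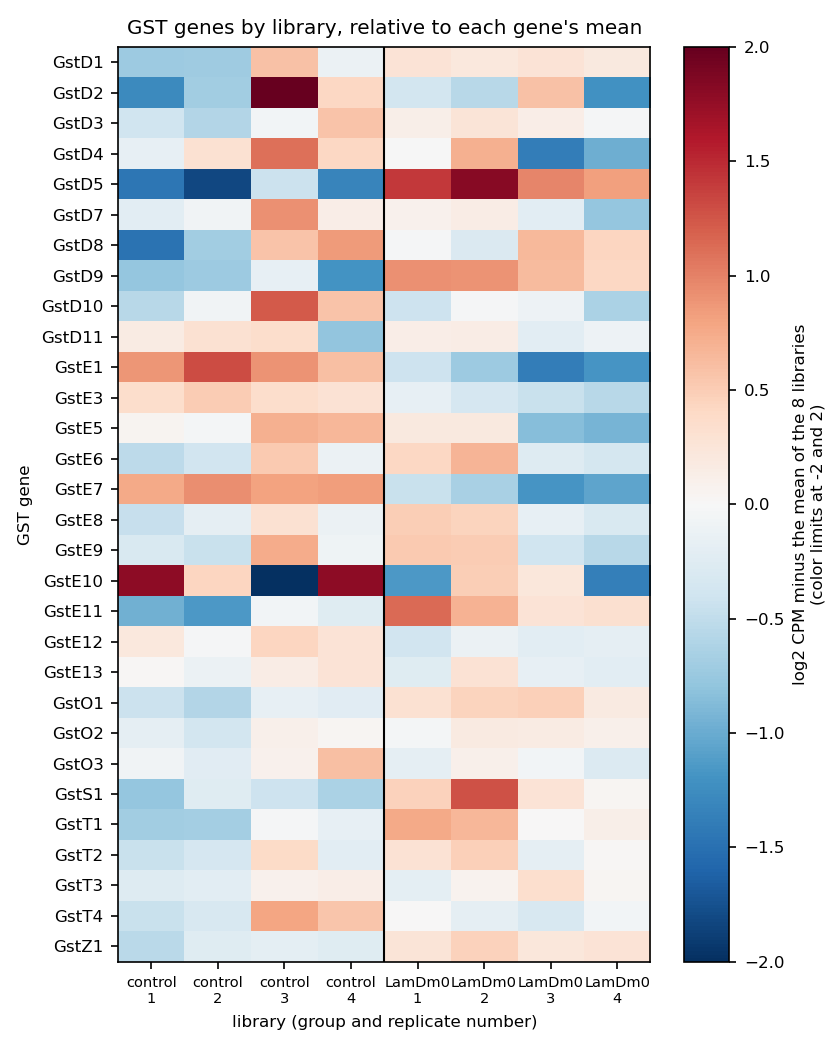
Log2 CPM of each tested GST gene (rows) in each library (columns) minus the mean of that gene over the 8 libraries; red is above and blue below the mean, with colors limited at -2 and 2. GstD5, GstD9, GstE1 and GstE7 differ between the groups, while GstD1, GstD2 and GstD10 are highest in control replicate 3 and GstE10 is lowest there.

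Genes of glutathione metabolism and of related redox and export pathways were described from 5 lists, which also hold thioredoxin, antioxidant, regulator and transporter genes. Of these 57 genes, 47 could be tested, 2 rose, 4 fell and 41 did not pass, so 12.8% were called, beside 8.03% of all genes, with a median log2 fold change of -0.07. MRP, which encodes an exporter of glutathione conjugates, had 243, 289, 421 and 293 CPM in controls and 626, 800, 780 and 716 CPM in LamDm0 guts. It rose 2.35-fold (adjusted p = 0.0061, up to 0.025 when any 1 library was left out), and the groups lay far apart. Mgstl, a membrane-bound microsomal GST outside the 6 classes, had 55.4, 49.9, 77.1 and 47.3 CPM in controls and 137, 153, 113 and 115 CPM in LamDm0 guts, and rose 2.25-fold (adjusted p = 0.0062, up to 0.026 likewise). Gclc, the catalytic subunit of the first enzyme of glutathione synthesis, fell. It had 590, 573, 373 and 330 CPM in controls and 232, 267, 255 and 278 CPM in LamDm0 guts, a decrease of 1.81-fold (adjusted p = 0.039, up to 0.10 when 1 library was left out). The other 3 that fell were CG17636 by 2.86-fold (adjusted p = 0.046), the peroxiredoxin gene Prx6c by 2.52-fold (adjusted p = 0.025) and CG31792 by 2.73-fold (adjusted p = 0.026). With each of the 8 libraries left out in turn, the call of Gclc was kept in 2 fits and that of CG17636 in 1. The calls of Prx6c and CG31792 were kept in 3 fits each. The summed level of the thioredoxin and peroxiredoxin list was higher in every LamDm0 library, at 1525 to 2343 CPM against 1297 to 1473 CPM in controls. Its median log2 fold change was -0.10, with 0 genes called higher and 1 lower. The sum of the list of regulators and exporters, which includes MRP, was also higher, at 2268 to 2850 CPM against 1717 to 2066 CPM. The median there was -0.13, with 1 gene called higher and 1 lower. The sums of the other lists overlapped between groups, and no sum was tested.

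The regulators themselves did not pass. The gene cnc had 341, 400, 328 and 327 CPM in controls and 319, 399, 364 and 358 CPM in LamDm0 guts, a difference of 0.05 ± 0.12 on the log2 scale (adjusted p = 0.86). Keap1 had 23.1, 27.1, 24.6 and 26.2 CPM and 18.1, 21.2, 25.5 and 16.3 CPM (-0.32 ± 0.15, adjusted p = 0.22). Among 9 antioxidant enzyme genes 0 passed by edgeR, DESeq2 or limma-voom, and 1 had an unadjusted p under 0.05. That was Zw, which encodes glucose-6-phosphate dehydrogenase, a source of NADPH (-0.54 ± 0.18, adjusted p = 0.12). Transcript levels of cnc and Keap1 do not measure the activity of the protein.

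The authors' deposited table, which holds their own comparison of the same libraries, called 11 members at an adjusted p under 0.05, 7 higher and 4 lower. It gives an adjusted p for 33 members. Over all genes it called 1283 of the 10499 with an adjusted p. The 11 members were the 9 called here and 2 more, GstT1 (adjusted p = 0.0235 in the authors' deposited table) and GstE12 (adjusted p = 0.00577 there).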

How the data were processed

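Libraries were made with a strand-marking kit from 100 ng of RNA and read as 50-nt single reads, per the labels. The authors deposited 1 table of counts per gene, which are whole numbers with a different total per library. TopHat2 2.0.13, HTSeq 0.6.0, DESeq2 1.10.1 and build BDGP6 are named in the submitters' processing notes, with no role given. Neither strand setting nor annotation release is given in the sources used here. The authors' deposited table of their own comparison holds a mean normalized signal, log2 fold changes and p-values, named per the file headers.

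Counts were tested with edgeR 4.0.16 in R 4.3.3 (filterByExpr, TMM scaling, quasi-likelihood F-test, two-sided, no block, Benjamini-Hochberg adjustment over the 8794 genes tested, threshold 0.05). CPM are TMM-scaled. SE values are the absolute log2 fold change over the root of F. Levels per kb use the exon union in the annotation. Alternatives used DESeq2 1.42.0, limma 3.58.1, other scalings and filters, a block and left-out libraries. Neighbour ratios were tested with scipy 1.17.1. The steps were also run on simulated libraries drawn independently of each other. That simulation held no close pairs of libraries, so it does not test the calls under the structure seen here. Intervals of 0 counts cover counting error only.

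Members and lists were chosen with earlier results of these data known. Every member may be named, with full values for those past the threshold and the 10 highest per kb. From each of the 5 other lists, up to 4 genes past the threshold are named, or else the one with the smallest p, besides cnc, Keap1 and Lam. GstD2, GstE5, GstE10, GstT1 and the markers were named after their values were seen. Of the genes written in the lists, 5 matched none and were left out. Sequences were not used here.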

Additional observations from a re-analysis of the deposited data

Results flagged for a closer look

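Over 60 gene-and-group sets of 4 libraries, 3 had a library that stood apart by Dixon's criterion, and chance alone gives about 3.0. GstD2 in control replicate 3 stood at 43.4 CPM, with the other 3 controls at 2.11 to 6.79 CPM. GstE13 in LamDm0 replicate 2 had 19.8 CPM against 13.6 to 14.5 CPM in the other LamDm0 libraries. GstZ1 in control replicate 1 stood at 6.22 CPM, with the other 3 controls at 7.65 to 7.94 CPM, and its call was kept without that library.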

How the results depend on the processing

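Of the 9 GST calls, all were kept under RLE scaling, without mitochondrially encoded genes, without a filter, by limma-voom and by DESeq2, which called 7 higher and 4 lower (12.7% of all genes, 1301). With a minimum mean of 10 CPM, GstO1 and GstZ1 were not tested and the other 7 were kept (465 genes called in all). Without 1 library, 346 to 654 genes were called over all genes, and of the members 3 to 5 as higher and 3 as lower. Without LamDm0 replicates 1 and 2, 878 genes were called in all, more than the 706 with all libraries, and 3 members were higher and 4 lower. Without 3 and 4, 439 genes were called in all, and 4 members were higher and 3 lower. With the libraries summed in pairs, chosen after seeing the data, 72 genes passed, and 0 members and 0 genes of the other lists in either direction. Same-numbered libraries did not deviate together (correlations of -0.23, -0.15, -0.45 and -0.03), so the number was not taken as a pairing. With a replicate block 332 genes passed, 2 members were higher (GstD5 and GstD9) and 3 lower, and 2 genes of the other lists were lower. Lower genes of the other lists numbered 0 to 3 without 1 library, 1 without LamDm0 replicates 3 and 4, 2 with the minimum of 10 CPM and 7 by DESeq2.

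The log2 ratio of summed CPM for class E went from -0.40 to -0.68 without LamDm0 replicates 1 and 2, to -0.17 without 3 and 4 and to -0.24 with plain CPM. It went from 1.1 to 0.67 for class S without LamDm0 replicates 1 and 2, and from 0.61 to 0.80 for class Z with plain CPM, a scaling that raised the median of all genes by 0.19 and also turned classes O and T from -0.08 and -0.10 to 0.11 and 0.11. Log2 fold changes of members that did not pass changed sign when 1 library was left out, over ranges of -2.12 to 0.10 for GstD2, -0.13 to 0.53 for GstD8, -0.27 to 0.03 for GstD11 and -0.13 to 0.37 for GstE9. Without LamDm0 replicates 1 and 2 this held for GstE6 (-0.24), GstE8 (-0.15) and GstE9 (-0.53), and without 3 and 4 for GstD8 (-0.23) and GstD11 (0.08). The cause was not tested for any of these. Depth limits GstE14 and the 4 other members that were not tested.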
